A study of Homo sapiens with 14 samples.

Results

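Cohesin and its regulators were followed across an AML1-ETO knockdown in Kasumi-1 cells through 27 microarray probe sets of 10 genes. The genes were the ring subunits SMC3, SMC1A and RAD21, the STAG1 and STAG2 subunits, the loader NIPBL, the release factor WAPL, its partners PDS5A and PDS5B, and CTCF. Every probe set whose only gene symbol in the platform annotation was a member was taken, 27 of 22283 in the table, and each was kept separate. All 10 genes had at least 1 probe set bright enough to test, and 23 of the 27 probe sets passed the filter on dim signals. The 4 that did not were 217555_at of SMC1A, 217218_at of WAPL, 213984_at of PDS5A and 204742_s_at of PDS5B, which lay between 0.78 and 28.7 over the 14 arrays.

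Kasumi-1 is an established cell line of human acute myeloid leukaemia with the AML1-ETO fusion, also written RUNX1-RUNX1T1. RNA was taken 96 h after transfection. The AML1-ETO siRNA was given by nucleofection, which is electrical (3 arrays), or with the lipid reagent siLentFect (3 arrays). The control, luciferase siRNA, targets the firefly gene and was given by nucleofection (2 arrays) or lipid (3 arrays). Cells nucleofected without siRNA gave 1 array and untransfected cells gave 2. The siRNA was at 1.5 µM with nucleofection and 240 nM with lipid, so that dose and method cannot be told apart. All groups were the same cell line, and the labels did not say whether replicates were separate cultures, so the p-values cover no more than the spread among these arrays, and that may be technical.

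Cohesin is a ring of SMC1A, SMC3 and RAD21 that holds sister chromatids together and extrudes chromatin loops. NIPBL loads the ring and drives its movement, WAPL with PDS5A or PDS5B takes it off DNA, and CTCF stops it at loop anchors. STAG1 and STAG2 are alternative subunits bound to RAD21. Genes of the complex are recurrently mutated in acute myeloid leukaemia, including the form with AML1-ETO, a fusion that keeps the DNA-binding domain of RUNX1 and joins it to the corepressor-binding protein ETO.

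The promoter of SMC3 is shown because SMC3 held the member probe set that fell with the knockdown. That of PDS5B is shown because, among members with a matched promoter window, it alone held TGTGGT, the form of the RUNX core motif searched. Other forms of that motif were not searched. RAD21 was not among those members. The windows run from 250 bases before to 50 bases after the annotated start, from RefSeq on GRCh38.p14, and TGTGGT is in capitals where it occurs. SMC3 lies at chr10:110567445-110567744 on the plus strand and PDS5B at chr13:32586202-32586501 on the plus strand.
SMC3: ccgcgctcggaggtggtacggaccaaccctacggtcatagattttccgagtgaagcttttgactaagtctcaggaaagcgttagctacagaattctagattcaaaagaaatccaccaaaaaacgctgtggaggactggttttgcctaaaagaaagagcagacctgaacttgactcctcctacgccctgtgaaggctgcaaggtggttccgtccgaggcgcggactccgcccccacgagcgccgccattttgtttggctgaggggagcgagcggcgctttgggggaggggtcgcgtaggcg
PDS5B: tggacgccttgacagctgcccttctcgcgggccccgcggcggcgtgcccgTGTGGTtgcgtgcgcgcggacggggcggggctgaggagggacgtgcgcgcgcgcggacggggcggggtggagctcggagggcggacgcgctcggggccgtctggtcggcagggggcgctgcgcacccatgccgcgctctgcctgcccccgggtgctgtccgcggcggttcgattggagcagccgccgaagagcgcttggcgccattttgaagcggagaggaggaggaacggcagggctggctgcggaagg
Windows were matched for SMC3, SMC1A, STAG1, STAG2, NIPBL, WAPL, PDS5A, PDS5B and CTCF, with more than 1 window for SMC1A and STAG2. The motif TGTGGT, searched on both strands, stood in 13.1% of the 35116 promoter windows of the RefSeq table. Among these members it stood in the PDS5B window, at position 51 counted from the window's 5′ end. A match of letters is not a binding site, and its absence says only that these letters are not in the window. The CTCF, PDS5B, PDS5A and WAPL windows were rich in CpG, with between 44 and 46 such dinucleotides against a median of 14 over all windows, and the SMC3 window held 23.

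The arrays carried the myeloblast markers of the line. MPO, KIT and ELANE, genes of myeloid progenitors and their granules, were bright, with signals of at least 4465 for both MPO probe sets, 1617 for KIT and 2695 for ELANE on every array. CD34, a progenitor surface antigen, was dim, between 29.1 and 79.5. The summed signal of 29 probe sets for T cell, B cell, erythroid, epithelial, fibroblast and endothelial markers ranged from 633 to 680 with AML1-ETO siRNA by nucleofection and 712 to 768 by lipid, against 751 to 770 and 662 to 762 with luciferase siRNA, and 692.5 to 711 in untransfected cells. The epithelial adhesion molecule EPCAM was the brightest of them, between 71.3 and 267. The T cell marker CD3E, between 30.9 and 84.7, was also above the floor of 20 on all 14 arrays. So were HBB, an erythroid marker, at 37.9 to 68.4 and 39.5 to 70.4, and COL1A1, a fibroblast marker, at 33.0 to 111. Other probe sets of HBB and COL1A1 fell under the floor on some or all arrays. The other T cell markers, CD3D and CD2, fell under it on 11 and 2 of the 14 arrays. CDH1, KDR, CDH5 and ALAS2 stayed under the floor on all 14 arrays. The part of these markers in the results was not tested. Arrays of the same group correlated at 0.969 to 0.984 on the log2 scale over all probe sets, and arrays of different groups at 0.953 to 0.984. The log2 3′ to 5′ ratio of the GAPDH control probe sets, a sign of RNA and target quality, was −0.18 to −0.11 with AML1-ETO siRNA by nucleofection, against 0.03 and 0.25 with luciferase siRNA by nucleofection. By lipid it was −0.38 to −0.17 with AML1-ETO siRNA, against −0.30 to −0.26 with luciferase siRNA. The same ratio of ACTB by nucleofection was 0.29 to 0.46 with AML1-ETO siRNA, against 0.38 and 0.84 with luciferase siRNA. For lipid the ACTB ratio was 0.31 to 0.59 with AML1-ETO siRNA, against 0.30 to 0.38 with luciferase siRNA.

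The targeted transcript was read from RUNX1T1, the ETO gene. Its brightest probe set, 205529_s_at, averaged 299 ± 41.7 with AML1-ETO siRNA by nucleofection (SD, n = 3), against 704 ± 83.6 with luciferase siRNA (SD, n = 2). By lipid it averaged 443 ± 52.9 with AML1-ETO siRNA and 556 ± 14.4 with luciferase siRNA (SD, n = 3 each). The fitted log2 difference was −1.24 by nucleofection (limma adjusted p = 0.00306) and −0.34 by lipid (limma adjusted p = 1). The difference between the methods, −0.90, did not pass (limma adjusted p = 0.222). As the mean of both methods the difference was −0.79 (SE 0.12, limma adjusted p = 0.00413), and 3 of the 4 RUNX1T1 probe sets were called lower. These probe sets cannot assign the fall to the fusion or to the unrearranged gene.

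Whether cohesin genes changed when AML1-ETO was targeted was the main question for these probe sets. Of the 23 tested, 1 was called at a limma adjusted p below 0.05 for the mean of both methods, 209257_s_at of SMC3, which fell. That is 4.35% of the members, against 1.24% of all 13329 probe sets tested, 0.383% lower and 0.855% higher. Of the calls over all probe sets 69.1% were higher, against 79.8% after quantile normalization and 88.5% with arrays centred on their medians. At an unadjusted p below 0.05 there were 2 of 23 (8.70%), the other being 200607_s_at of RAD21, against 13.5% of all probe sets. Of the members, 16 lay below 0 and their median log2 difference was −0.07, the same as the median of all probe sets tested, of which 63.5% lay below 0. With quantile normalization 12 of the 23 lay below 0, and with arrays centred on their medians 11, so that the number of members below 0 follows the scaling.

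SMC3 encodes the ring subunit whose acetylation by ESCO enzymes locks cohesin on replicated DNA. Its brightest probe set, 209257_s_at, had signals of 275, 253 and 231 with AML1-ETO siRNA by nucleofection, against 300 and 468 with luciferase siRNA by nucleofection. By lipid the signals were 86.9, 70.0 and 81.0 with AML1-ETO siRNA, against 205, 136 and 149 with luciferase siRNA. Nucleofection without siRNA gave 339, and untransfected cells gave 180 and 238. Within each method every AML1-ETO array was lower than every luciferase array. This held for 1 of the 23 members and for 1.4% of all probe sets tested. The opposite order held for 0 members and for 1.02% of all. In RNA from bulk cells, fewer cells with a transcript and less of it per cell cannot be told apart.

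The fitted difference of 209257_s_at was −0.80 on the log2 scale as the mean of both methods (SE 0.16, 95% interval −1.14 to −0.46, limma adjusted p = 0.0277), a change of −42.5%. By lipid it was −1.03 (SE 0.21, limma adjusted p = 0.202) and by nucleofection −0.57 (SE 0.23, limma adjusted p = 0.228), and neither passed alone. The difference between the methods was 0.45 (95% interval −0.22 to 1.13, limma adjusted p = 0.667). The call was lost without luciferase nucleofection replicate 2, the array at 468, where the difference was −0.64 (limma adjusted p = 0.119). It was also lost, at adjusted p between 0.0520 and 0.0686, when replicate 2 or 3 of AML1-ETO nucleofection, replicate 2 of AML1-ETO lipid, or replicate 1 or 3 of luciferase lipid was left out.

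The other SMC3 probe sets had another pattern. For 209259_s_at the signals were 90.1, 98.4 and 75.5 with AML1-ETO siRNA by nucleofection, against 127 and 115 with luciferase siRNA. The lipid arrays read 104, 99.6 and 161 with AML1-ETO siRNA, against 57.1, 123 and 119 with luciferase siRNA. The groups were apart by nucleofection and overlapped by lipid, and the mean difference was −0.07 (95% interval −0.56 to 0.43, limma adjusted p = 0.921). For 209258_s_at, the dimmest of the 3, the signals were 26.3, 25.5 and 27.9 with AML1-ETO siRNA by nucleofection, against 41.1 and 50.4 with luciferase siRNA. With lipid the values were 46.9, 34.8 and 29.5 with AML1-ETO siRNA, against 24.8, 38.3 and 33.9 with luciferase siRNA. Its difference was −0.78 by nucleofection (limma adjusted p = 0.113) and 0.19 by lipid (limma adjusted p = 1).

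**Figure D1:**
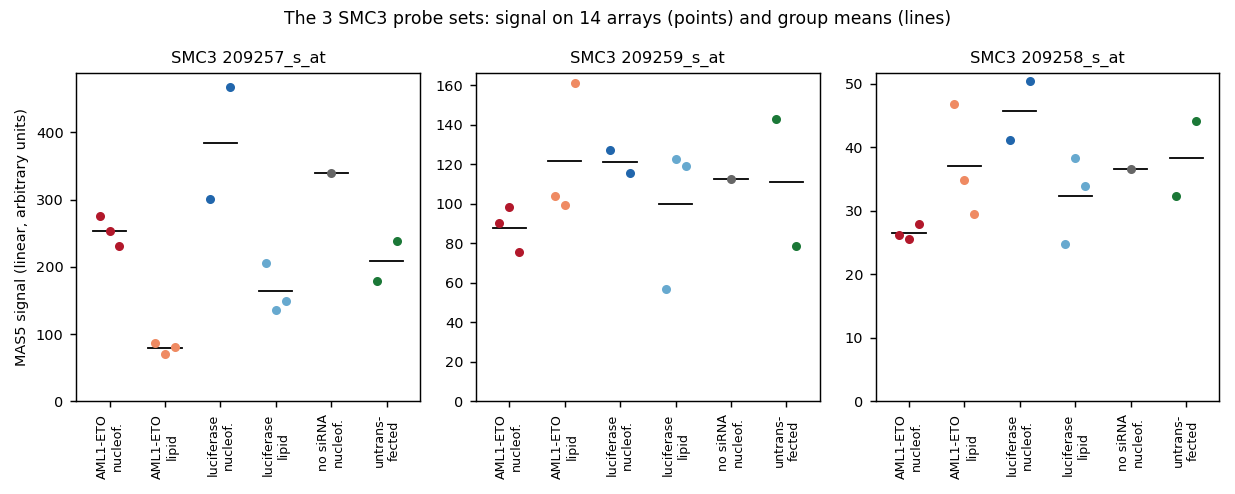
Signal of the 3 SMC3 probe sets on a linear scale (vertical axis, arbitrary units, starting at 0) by group, with 1 point per array and a line at the group mean. By nucleofection the AML1-ETO arrays lie below the luciferase arrays in every panel, while by lipid they do so for 209257_s_at alone, and the lipid groups overlap for 209259_s_at and 209258_s_at.

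By nucleofection, then, all 3 SMC3 and both STAG1 probe sets had their AML1-ETO arrays below their luciferase arrays. These 5 of the 23 members compare with 23.1% of all probe sets tested, and 0 members were higher without overlap, against 12.4% of all. Of these members 0 were called by limma for knockdown by nucleofection, and 2 had an unadjusted p below 0.05, where 2.1% and 17.5% of all probe sets were. By lipid 1 of 23 was lower without overlap and 0 higher, against 5.73% and 3.38% of all probe sets. There 0 members were called by limma and 2 had an unadjusted p below 0.05, against 0.0675% and 4.86% of all. For the difference between methods 0 members were called and 1 had an unadjusted p below 0.05, 209258_s_at at −0.97 (limma adjusted p = 0.307), where 0.0525% of all probe sets were called and 10.6% had such a p.

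How far the SMC3 probe sets parted from each other is described by their log2 ratio within each array, a measure chosen after the values were seen and so given with no test. The ratio of 209257_s_at to 209259_s_at averaged 1.53 ± 0.14 with AML1-ETO siRNA by nucleofection and −0.59 ± 0.37 by lipid (SD, n = 3 each). It averaged 1.63 ± 0.55 (SD, n = 2) with luciferase siRNA by nucleofection and 0.77 ± 0.94 (SD, n = 3) by lipid. Nucleofection minus lipid was 1.49 in this ratio and 1.42 in the ratio to 209258_s_at. AML1-ETO minus luciferase was −0.73 in the ratio to 209259_s_at and −0.51 in the ratio to 209258_s_at. The values do not show which probe set follows the SMC3 transcript.

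The other ring subunits were SMC1A, the partner ATPase of SMC3, and RAD21, the kleisin that closes the ring and is cut by separase at anaphase. SMC1A at 201589_at had signals of 249, 237 and 218 with AML1-ETO siRNA by nucleofection, against 236 and 256 with luciferase siRNA. Lipid delivery gave 229, 207 and 325 with AML1-ETO siRNA, against 237, 272 and 302 with luciferase siRNA. The groups overlapped in both methods, and the mean difference was −0.09 with a 95% interval of −0.39 to 0.21 (limma adjusted p = 0.812).

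RAD21 at 200607_s_at had signals of 143, 105 and 96.6 with AML1-ETO siRNA by nucleofection, against 151 and 140 with luciferase siRNA. By lipid the arrays gave 97.7, 123 and 161 with AML1-ETO siRNA, against 187, 171 and 158 with luciferase siRNA. Most AML1-ETO arrays were lower, but each pair of groups overlapped by 1 array, and the mean difference of −0.41 (95% interval −0.74 to −0.09) did not pass (limma adjusted p = 0.257). The other RAD21 probe set, 200608_s_at, lay between 72.0 and 125 and its mean difference was 0.05 (95% interval −0.28 to 0.37, limma adjusted p = 0.920). The 2 RAD21 probe sets thus gave opposite signs, and neither passed.

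STAG1 and STAG2 bind RAD21 and give cohesin its 2 somatic forms. STAG2 at its brightest probe set, 209022_at, had signals of 175, 267 and 211 with AML1-ETO siRNA by nucleofection, against 208 and 270 with luciferase siRNA. By lipid they were 309, 272 and 377 with AML1-ETO siRNA, against 223, 287 and 288 with luciferase siRNA. The groups overlapped in both methods. The mean differences of the 3 STAG2 probe sets were 0.06 for 209022_at, −0.00 for 207983_s_at and −0.03 for 209023_s_at, with 95% intervals that reached no further than −0.47 and 0.42.

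STAG1 at 202294_at had signals of 70.5, 85.5 and 61.0 with AML1-ETO siRNA by nucleofection, against 94.4 and 89.3 with luciferase siRNA. The lipid arrays read 124, 110 and 94.8 with AML1-ETO siRNA, against 110, 92.2 and 95.6 with luciferase siRNA. The nucleofection groups did not overlap and the lipid groups did. Its difference was −0.36 by nucleofection (limma adjusted p = 0.343) and 0.14 by lipid (limma adjusted p = 1), and the difference between methods of −0.49 did not pass (limma adjusted p = 0.517). The other STAG1 probe set, 202293_at, was at −0.34 by nucleofection and −0.14 by lipid (limma adjusted p = 0.545 and 1).

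NIPBL, which forms the loader with MAU2, had 4 probe sets, as PDS5A did. The brightest, 213918_s_at, had signals of 65.1, 99.4 and 64.8 with AML1-ETO siRNA by nucleofection, against 53.7 and 71.5 with luciferase siRNA. With lipid the values were 54.4, 73.4 and 127 with AML1-ETO siRNA, against 80.5, 81.6 and 61.9 with luciferase siRNA. The groups overlapped in both methods, and the mean difference was 0.19 (95% interval −0.28 to 0.65). The others were at −0.17 for 212469_at, 0.06 for 212483_at and −0.03 for 207108_s_at, and the limma adjusted p of the 4 was at least 0.742. The probe set 212469_at varied the most among members within groups, with a pooled SD of 0.52 on the log2 scale. Its AML1-ETO lipid replicates 1, 2 and 3 read 33.3, 36.3 and 103.

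WAPL, the release factor, was among the steadiest members. Its probe set 212264_s_at had signals of 196, 239 and 223 with AML1-ETO siRNA by nucleofection, against 214 and 191 with luciferase siRNA. Lipid delivery gave 196, 216 and 263 with AML1-ETO siRNA, against 214, 235 and 213 with luciferase siRNA. The AML1-ETO and luciferase groups overlapped in both methods, and the array without siRNA, at 183, was the lowest of the 14. The SD over the 14 arrays was 0.14 on the log2 scale, lower than in all but 1.75% of the probe sets tested. The mean difference was 0.07 (95% interval −0.18 to 0.32), and that of 212267_at was 0.08 (95% interval −0.17 to 0.32).

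PDS5A and PDS5B bind the ring beside WAPL. PDS5A at 212138_at had signals of 160, 185 and 127 with AML1-ETO siRNA by nucleofection, against 164 and 212 with luciferase siRNA. By lipid the arrays gave 211, 200 and 260 with AML1-ETO siRNA, against 205, 214 and 241 with luciferase siRNA. The groups overlapped in both methods. Its mean difference was −0.12 (95% interval −0.41 to 0.17), that of 212140_at was 0.01, and that of the dim 213983_s_at, with 4 arrays under the intensity floor of 20, was −0.35 (95% interval −0.85 to 0.15).

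PDS5B at 207956_x_at, whose suffix marks probes shared with other transcripts, had signals of 33.4, 60.4 and 42.3 with AML1-ETO siRNA by nucleofection, against 59.3 and 47.2 with luciferase siRNA. By lipid they were 59.0, 54.8 and 91.9 with AML1-ETO siRNA, against 54.4, 85.4 and 70.8 with luciferase siRNA. The groups overlapped in both methods, and the mean difference was −0.16 (95% interval −0.57 to 0.25). The other tested probe set of PDS5B, 215888_at, was at −0.11 (95% interval −0.44 to 0.22).

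CTCF, the zinc finger protein at loop anchors, had 1 probe set, 202521_at. Its signals were 159, 183 and 164 with AML1-ETO siRNA by nucleofection, against 223 and 161 with luciferase siRNA. The lipid arrays read 199, 181 and 234 with AML1-ETO siRNA, against 167, 218 and 196 with luciferase siRNA. The groups overlapped in both methods. Nucleofection without siRNA gave 180 and untransfected cells 213 and 179, so that all 14 arrays lay between 159 and 234. The mean difference was −0.04 with a 95% interval of −0.33 to 0.24 (limma adjusted p = 0.914).

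**Figure D2:**
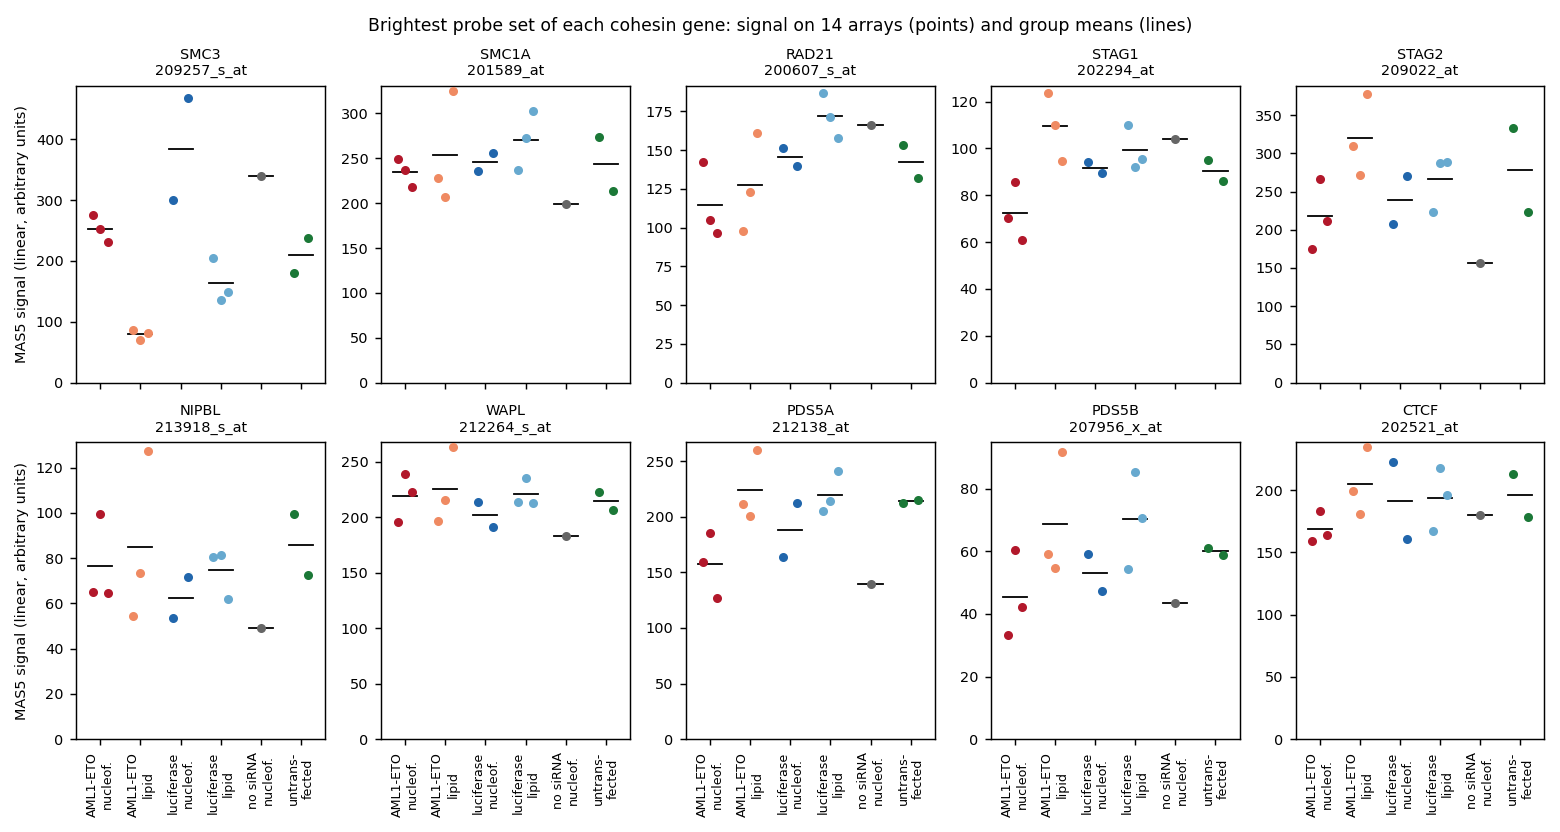
Signal of the brightest probe set of each of the 10 genes on a linear scale (vertical axis, arbitrary units, starting at 0) by group, with 1 point per array and a line at the group mean. SMC3 shows groups that separate by siRNA within each method and by method, from 70.0 to 468, while for CTCF, at 159 to 234, and WAPL, at 183 to 263, the AML1-ETO and luciferase groups overlap within each method.

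These intervals set what the arrays could show. For the mean knockdown effect the half-width of the 95% interval ran from 0.24 to 0.57 on the log2 scale over the 23 probe sets. These intervals are not adjusted, and a call over all probe sets needed more than an interval clear of 0, as for RAD21 200607_s_at. A p that missed the threshold does not show that a level was the same. The pooled within-group SD of 209257_s_at was 0.27, near the median of 0.26 over all probe sets tested, while its SD over the 14 arrays was 0.82, against a median of 0.32 and higher than in 99.4% of them. The next largest among the members was 0.55, for NIPBL 212469_at.

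Delivery method was compared as nucleofection minus lipid, the mean over both siRNAs. At a limma adjusted p below 0.05, 3 of the 23 members were called (13.0%), against 22.6% of all probe sets tested. SMC3 209257_s_at and PDS5B 215888_at were higher by nucleofection and STAG2 209023_s_at was lower. Of all probe sets 4.59% were higher and 18% lower, so that 20.4% of their calls were higher, against 46.5% after quantile normalization. At an unadjusted p below 0.05 there were 10 of 23 members, against 36.9% of all. Of the members 18 lay below 0, with a median of −0.15, against 65.8% of all probe sets below 0 and a median of −0.14. Quantile normalization moved the median of all probe sets by 0.13 in this comparison, and 11 of the 23 members then lay below 0, with a median of 0.00.

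SMC3 209257_s_at differed the most of the members. It averaged 253 ± 22.2 by nucleofection and 79.3 ± 8.57 by lipid with AML1-ETO siRNA (SD, n = 3 each). With luciferase siRNA it averaged 384 ± 119 by nucleofection (SD, n = 2) and 163 ± 36.8 by lipid (SD, n = 3). The difference was 1.45 (SE 0.16, limma adjusted p = 0.000141), a 2.73-fold higher signal by nucleofection, and it kept its call under all 23 alternatives tried. Some of these were the same fit, as leaving out either untransfected array repeats the fit of only the groups compared. Every nucleofection array was above every lipid array for each siRNA, as for 2.89% of all probe sets. The corresponding differences of 209259_s_at and 209258_s_at were −0.04 (95% interval −0.53 to 0.46) and 0.03 (95% interval −0.31 to 0.38).

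STAG2 209023_s_at had signals of 29.5, 50.3 and 33.2 by nucleofection and 49.8, 49.9 and 77.1 by lipid with AML1-ETO siRNA. With luciferase siRNA it had 24.8 and 52.5 by nucleofection and 57.6, 57.3 and 67.6 by lipid. The difference was −0.70 (SE 0.21, limma adjusted p = 0.0294). It did not pass with quantile normalization (−0.62, limma adjusted p = 0.0557), without a filter (limma adjusted p = 0.0565) or with a floor of 64 (−0.06, limma adjusted p = 0.434). It also did not pass without luciferase nucleofection replicate 1 (−0.43, limma adjusted p = 0.153), replicate 3 of either lipid group, or replicate 1 or 3 of AML1-ETO nucleofection, each left out in turn (limma adjusted p between 0.0607 and 0.0684). The brighter STAG2 probe sets 209022_at and 207983_s_at were at −0.36 and −0.40 and did not pass (limma adjusted p = 0.127 and 0.0713).

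PDS5B 215888_at, close to the floor, had signals of 39.1, 35.7 and 30.6 by nucleofection and 26.4, 20.2 and 25.3 by lipid with AML1-ETO siRNA. With luciferase siRNA it had 32.3 and 42.2 by nucleofection and 26.8, 33.7 and 19.4 by lipid. The groups were apart with AML1-ETO siRNA and overlapped with luciferase siRNA. The difference was 0.52 (SE 0.15, limma adjusted p = 0.027). It was lost without luciferase nucleofection replicate 2 (0.43, limma adjusted p = 0.109), replicate 1 of AML1-ETO nucleofection, replicate 2 of AML1-ETO lipid or replicate 3 of luciferase lipid, with limma adjusted p between 0.0529 and 0.0589 for the last 3. The other tested PDS5B probe set lay the other way, at −0.49 (limma adjusted p = 0.0785).

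With AML1-ETO siRNA 8 of the 23 members were lower by nucleofection than by lipid without overlap and 2 were higher, against 24.3% and 6.97% of all probe sets. The 8 were 209259_s_at and 209258_s_at of SMC3, 202294_at of STAG1, 209022_at and 207983_s_at of STAG2, 207108_s_at of NIPBL, 212267_at of WAPL and 212138_at of PDS5A. None of these 8 passed in the main fit of method, and STAG1 202294_at came nearest, at −0.36 (limma adjusted p = 0.0555). Some passed under alternatives. With a floor of 64, STAG1 202294_at, PDS5A 212138_at and WAPL 212267_at were called. These were also called with a stricter filter that kept the upper 40% of probe sets, as was STAG2 207983_s_at. With luciferase siRNA 4 members were lower without overlap, both RAD21 probe sets, STAG2 209023_s_at and WAPL 212267_at, and 2 were higher, against 31.1% and 13.4% of all probe sets. WAPL 212267_at was thus lower with both siRNAs, as were 13.9% of all.

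**Figure D3:**
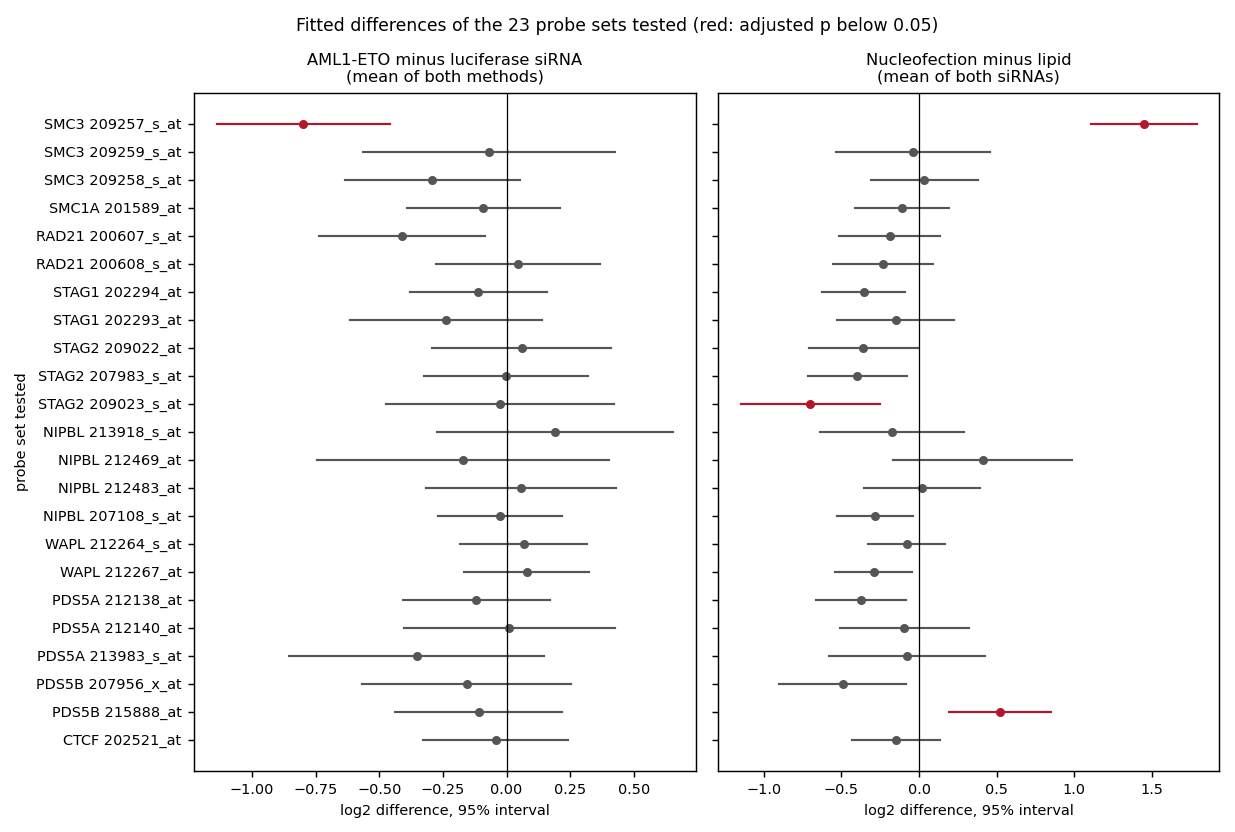
Fitted log2 differences (points) with 95% intervals (lines) of the 23 tested probe sets, grouped by gene, for AML1-ETO minus luciferase siRNA on the left and nucleofection minus lipid on the right. Red marks an adjusted p below 0.05, which is SMC3 209257_s_at at −0.80 on the left, and SMC3 209257_s_at at 1.45, STAG2 209023_s_at at −0.70 and PDS5B 215888_at at 0.52 on the right.

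Each luciferase group was also set against untransfected cells, which both comparisons share. For luciferase nucleofection 0 members were called, where 4.88% of all probe sets were, and 3 had an unadjusted p below 0.05, against 22.3% of all. Of all probe sets 1.69% were higher and 3.19% lower, and 34.6% of these calls were higher, against 11% with arrays centred on their medians. The 3 were SMC3 209257_s_at at 0.86 (95% interval 0.30 to 1.41, limma adjusted p = 0.0729), PDS5B 215888_at at 0.62 (limma adjusted p = 0.162) and RAD21 200608_s_at at −0.58 (limma adjusted p = 0.185). The SMC3 value passed with quantile normalization, with a stricter filter that kept the upper 40% of probe sets, and with an intensity trend and robust prior. Without overlap 2 members were higher, SMC3 209257_s_at and PDS5B 215888_at, and 6 lower, against 23.2% and 29.8% of all. For luciferase lipid 0 members were called and 0 had an unadjusted p below 0.05, where 0.0075% and 3.65% of all probe sets were. There 1 member, RAD21 200607_s_at, was higher without overlap and 0 were lower, against 15% and 4.78% of all. SMC3 209257_s_at was at −0.36 (95% interval −0.87 to 0.14) in that comparison.

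Relative to untransfected cells, with no test, SMC3 209257_s_at stood at 0.29 with AML1-ETO siRNA by nucleofection and −1.39 by lipid on the log2 scale, and at 0.71 on the array of nucleofection without siRNA. The order of its group means was luciferase nucleofection, nucleofection without siRNA, AML1-ETO nucleofection, untransfected, luciferase lipid and AML1-ETO lipid. All nucleofected groups thus lay above untransfected cells in mean signal and both lipid groups below. The AML1-ETO nucleofection arrays (231 to 275) overlapped untransfected cells (180 and 238), which overlapped luciferase lipid (136 to 205), and AML1-ETO lipid (70.0 to 86.9) overlapped no other group. STAG2 209023_s_at stood at −0.70 with AML1-ETO siRNA by nucleofection, −0.73 with luciferase siRNA by nucleofection and −1.22 without siRNA, against −0.05 and 0.02 by lipid with AML1-ETO and luciferase siRNA.

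The profile of SMC3 209257_s_at over the 14 arrays was closest, among probe sets of other genes, to 206929_s_at of NFIC, 203355_s_at of PSD3 and 205010_at of GNL3L. Their root mean square differences from it, after each probe set was centred on its own mean log2 signal, were 0.20, 0.27 and 0.36, against a median of 0.88 over all probe sets tested. NFIC is a nuclear factor I transcription factor. Its signal averaged 72.0 ± 8.36 with AML1-ETO siRNA by nucleofection (SD, n = 3) and 113 ± 2.58 with luciferase siRNA (SD, n = 2). By lipid it averaged 21.7 ± 2.73 with AML1-ETO siRNA and 52.5 ± 8.66 with luciferase siRNA (SD, n = 3 each). The NFIC probe set was in the same order of groups as SMC3 209257_s_at by siRNA and by method. These probe sets were picked for their likeness on the same arrays. Any likeness in group order or knockdown difference follows from that choice and is no separate evidence. The mean knockdown difference of NFIC was −0.94 (SE 0.14, limma adjusted p = 0.00411). PSD3 at −0.60 and GNL3L at −0.42 did not pass (limma adjusted p = 0.158 and 0.161).

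**Figure D4:**
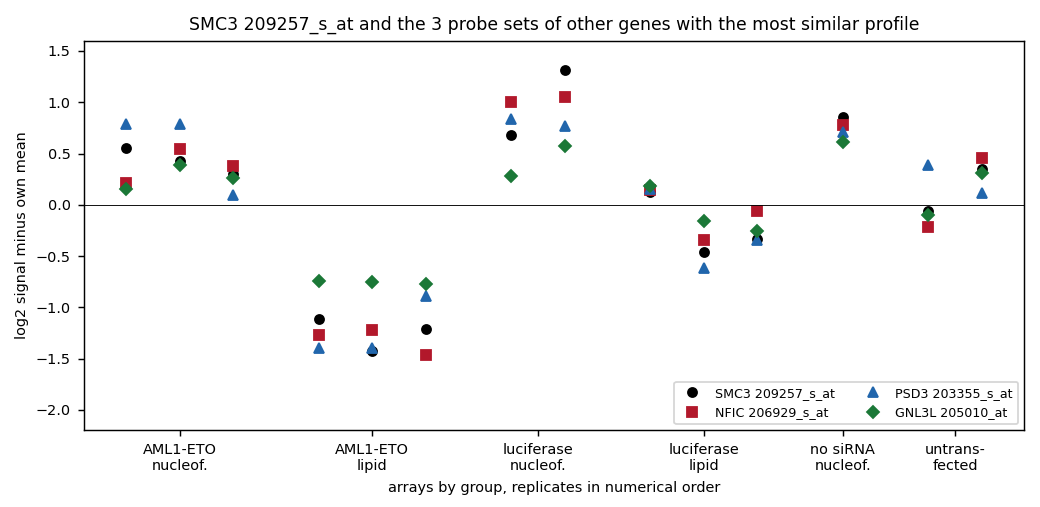
Log2 signal of SMC3 209257_s_at and of the probe sets of NFIC, PSD3 and GNL3L, each minus its own mean over the 14 arrays (vertical axis), with 1 point per array by group. All 4 are lowest with AML1-ETO siRNA by lipid and above their own mean on every nucleofection array, with or without siRNA. The NFIC, PSD3 and GNL3L probe sets were picked for their likeness to SMC3 209257_s_at.

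Other genes of the cohesin cycle did not pass for the knockdown. Of 14 tested probe sets of 9 such genes 0 were called by limma for the mean of both methods, against 1.24% of all probe sets tested. Their median was −0.11, against −0.07 over all. WDHD1, a replication fork protein with a role in cohesion, was at −0.62 (SE 0.16, limma adjusted p = 0.0983). MAU2, the partner of NIPBL, was at −0.06 and 0.28 in its 2 probe sets, and the separase gene ESPL1 at −0.03 and −0.01. REC8, the meiotic kleisin and the only tested gene of its list, was at −0.47 (SE 0.25, limma adjusted p = 0.426). With luciferase siRNA by nucleofection 2 of the 14 were higher than in untransfected cells, DSCC1, a subunit of a clamp loader in cohesion, at 1.25 (SE 0.29, limma adjusted p = 0.0296) and WDHD1 at 1.07 (limma adjusted p = 0.0362), where 1.69% of all probe sets were higher. Their lipid differences from the same untransfected arrays were 1.01 for DSCC1 and 1.13 for WDHD1, which did not pass (limma adjusted p = 0.962 and 0.711). By nucleofection against lipid 1 of the 14 was lower, PTTG1, or securin, at −0.32 (limma adjusted p = 0.0386), where 18% of all probe sets were lower.

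Related SMC complexes and loop partners likewise had 0 knockdown calls, where 1.24% of all probe sets tested were called. The 20 tested probe sets of condensin and SMC5/6 genes had a median of −0.10, and the 16 of chromatin loop partners −0.12. The median knockdown difference over all probe sets was −0.07. By nucleofection against lipid 5 of the 20 were lower, where 18% of all probe sets were, among them SMC5 at −0.47 and NSMCE4A at −0.56, and NCAPH2 of condensin II was higher in 1 of its probe sets, at 0.70 (limma adjusted p = 0.00704). Of the loop partners 6 of 16 were lower and 0 higher, led by MED1 of Mediator at −0.78 (limma adjusted p = 0.00499) and MED12 at −0.51 (limma adjusted p = 0.00977), each in 1 of its probe sets. These counts stand beside the 18% of all probe sets that were lower and 4.59% that were higher in this comparison. Cell cycle genes, listed because cohesin genes vary with proliferation, had a median knockdown difference of −0.18 over 29 probe sets with 0 called, and their part in the SMC3 value was not tested.

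Replicates of a group differed in how often they held its highest member signal. Untransfected replicate 1 was the higher of 2 for 17 of the 23 members (73.9%), as for 53.3% of all probe sets tested. AML1-ETO lipid replicate 3 had the highest signal of its 3 replicates for 16 members (69.6%), as for 54.6% of all. Replicate 2 of that group was the highest for 0 of 23, against 27.5% of all, and the lowest for 14. AML1-ETO nucleofection replicate 3 was the highest for 2 and the lowest for 13, and luciferase lipid replicate 1 the highest for 3 and the lowest for 13, where 38.6% and 39.8% of all probe sets were lowest on these arrays. After quantile normalization AML1-ETO lipid replicate 3 was still the highest for 13 of 23, against 35.4% of all probe sets, and AML1-ETO lipid replicate 2 for 0, against 34.0%. The upper quartile of signal on AML1-ETO lipid replicate 3, 94.8, was the highest of the 14 arrays, and the others ranged from 73.3 upward. Its 3′ to 5′ ratio of GAPDH, −0.38, was the lowest, while its ACTB ratio, 0.31, was not. Their part was not tested. Leaving out AML1-ETO lipid replicate 3 kept the SMC3 209257_s_at call for the knockdown, just under the threshold (limma adjusted p = 0.0498). It removed that of STAG2 209023_s_at for the method (limma adjusted p = 0.0684).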

How the data were processed

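Values were the authors' linear intensity for each probe set, which the submitters' processing notes trace to MAS5 (version not given in the sources used here) and which, per the labels, carried 1 scale factor an array. All 14 arrays had the same mean intensity, which hides any shift common to most genes. Of 22215 probe sets other than controls, 19065 had 1 gene symbol in the platform annotation, 1043 several and 2107 none.

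Intensities under 20 were set to 20 before log2 (38.3% to 44.2% of probe sets per array), which understates differences of dim genes. The upper 60% of probe sets by mean, 13329, were fitted with limma 3.58.1 in R 4.3.3 as 6 group means over 14 arrays, with 8 residual degrees of freedom, and calls were made at a Benjamini-Hochberg adjusted p below 0.05 over all of them. Steps were tested on simulated data. The number of arrays limits the precision.

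Per-array values are given for every called probe set and the brightest of each member, and up to 4 called probe sets were named per further list. The 3 nearest profiles were taken by root mean square difference. The members and lists were chosen with earlier results of these data known. Alternatives changed the floor, scaling, filter, features, variance model, arrays and controls. All 14 arrays of the series were analysed, and they hold no replicate 3 of luciferase nucleofection and no replicate 2 of untransfected cells. Python 3.11.15, pandas 2.3.3, numpy 2.4.6 and matplotlib 3.10.9 were used.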

Additional observations from a re-analysis of the deposited data

How the results depend on the processing

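Alternatives changed 1 choice at a time, among them a floor of 64, quantile normalization, centring on array medians, the filter, 1 probe set per gene, the variance model, the arrays fitted and, for the knockdown, other controls. For the mean knockdown effect 1 member was called in each of these that kept all the compared arrays, and 0 with the replicate block, where SMC3 209257_s_at was at −0.80 (limma adjusted p = 0.0709). Same-numbered arrays did not deviate together (correlations of −0.29 to 0.06 over 22 pairs), so the numbers were not taken as pairs, and the block moved the count of all calls from 165 to 107 and left PDS5B 215888_at uncalled for nucleofection minus lipid (0.49, limma adjusted p = 0.0507). Leaving out single arrays gave 0 to 1. The SMC3 209257_s_at difference ranged from −0.96 to −0.64 over 24 alternatives and kept its call in 17. These were not all separate fits. Leaving out either untransfected array gave the same fit as using only the groups compared, and each was counted as kept. For knockdown by lipid 1 member, SMC3 209257_s_at, was called with an intensity trend and robust prior. For nucleofection minus lipid 5 members were called without a filter, 6 with the upper 40% of probe sets, and 5 with the trend and robust prior, and 1 to 7 without single arrays. For luciferase nucleofection minus untransfected 1 was called with quantile normalization, with the upper 40% and with the trend and robust prior. Over all probe sets 165 were called for the mean knockdown effect against 98 to 267 under alternatives, 280 against 38 to 520 by nucleofection, 9 against 0 to 17 by lipid, and 7 against 1 to 59 for the difference between methods. Nucleofection minus lipid had 3007 against 1841 to 3427. Luciferase minus untransfected had 650 against 0 to 1386 by nucleofection and 1 against 0 to 3 by lipid. In no alternative did a called member change direction. The causes were not tested, beyond the fewer or more probe sets and arrays that some alternatives hold. Centring arrays on their medians moved the median of all probe sets by 0.13 for knockdown by nucleofection and by −0.19 and −0.14 for luciferase nucleofection and lipid minus untransfected. Quantile normalization moved 20 of 135 group means of members by over 1 SD. Dim probe sets near the floor limit what can be read from PDS5B 215888_at and SMC3 209258_s_at.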
